A study of Mus musculus with 28 samples.

Results

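Cathepsins are the proteases of the lysosome, and cystatin C is a secreted inhibitor of many of them. The 10 genes described here, Ctsa, Ctsb, Ctsc, Ctsd, Ctsh, Ctsk, Ctsl, Ctss, Ctsz and Cst3, were found by symbol in the deposited tables among 29066 genes with a count in some library. All 10 passed the filter on low counts in every comparison. They were measured by 3′ RNA sequencing of primary mouse microglia, the resident macrophages of the brain, in 28 libraries. The cells came from APOE3 mice (label WT) or from APOE3S/S mice, which carry the Christchurch form of APOE3. All mice thus carried some form of APOE3; the age and sex of the animals, the doses and the times of treatment were not stated in the labels read here.

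APOE3 cells were untreated (label Control, 6 libraries) or treated with tau (6) or amyloid (3), and APOE3S/S cells were untreated (4) or treated with tau (6) or amyloid (3). The titles fall into a SAN series of 17 libraries with all treatments and a second series of 11 libraries with untreated and tau-treated cells only. Library numbers are given within a group. Untreated APOE3 libraries 1 to 3, untreated APOE3S/S libraries 1 and 2, tau libraries 4 to 6 and all amyloid libraries belong to the SAN series. The labels do not say that replicates were separate cultures or animals, so p-values measure the spread between these libraries, which may be technical.

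Cathepsins are made as inactive precursors, sorted to acidic endosomes and lysosomes, and activated there by cleavage. Most of the genes here encode cysteine proteases, while Ctsd encodes an aspartic protease and Ctsa a serine carboxypeptidase. In microglia and other macrophages they degrade engulfed protein, trim antigen and the invariant chain for MHC class II, and process other enzymes. Cystatin C binds cysteine cathepsins and does not inhibit cathepsin D.

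The count totals were 14.5 M to 27.2 M per library, with M for 1e6, with 17302 to 20023 genes detected and 0.934 to 1.79% of counts from mitochondrial genes. Summed over 12 microglial markers, levels were 7925 to 14551 counts per M counts of the library (CPM), but 2 defining markers of microglia were low, Tmem119 at 0.910 to 5.83 CPM and P2ry12 at 9.38 to 30.8 CPM. Neuronal markers summed to at most 4.44 CPM. Astrocyte markers summed to 24.0 to 76.4 CPM, mostly Aldh1l1, and oligodendrocyte-lineage markers to 109 to 183 CPM, mostly Mbp. Markers of border-associated macrophages and monocytes summed to 1091 to 3495 CPM. Fewer cells of a type and less RNA per cell cannot be told apart in bulk libraries.

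In GRCm38 with the GENCODE annotation, 3 of the genes lie on chromosome 2 and 2 each on chromosomes 3 and 7. Ctsd, an aspartic protease, is at chr7:142375911-142388038 on the minus strand, and Ctsc, the dipeptidyl peptidase that activates granule serine proteases, is at chr7:88278085-88310888 on the plus strand. Ctsb is at chr14:63122462-63145923 and Ctsl at chr13:64359337-64370890. Ctsa (chr2:164832873-164841032), Ctsz (chr2:174427493-174439039) and Cst3 (chr2:148871722-148875692) share a chromosome, as do Ctsk (chr3:95499256-95509362) and Ctss (chr3:95526786-95556403), and Ctsh is at chr9:90054152-90076089. Ctsd shares 808 exonic bases on its own strand with Gm49369, and Ctsl shares 395 with the pseudogene Gm49230 and 1742 with the antisense gene Gm47123, and these 3 genes were listed at 0 counts in every library. Exons of Ctsa overlap those of Neurl2 and Pltp, and exons of Ctsb those of Fdft1, on the opposite strand, and whether counting used strand is not stated in the labels or headers. The counts of these members are uncertain to that extent.

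RefSeq promoter windows (GRCm38.p6, 250 bases before to 50 after a start site) were matched for 8 of the 10 genes, in 9 windows. Both strands were searched for 12 motifs, and the sites of 4 were picked for display after the matches had been seen. These 4 were the E-box CACGTG, its longer form TCACGTGA, known from promoters of lysosomal genes, the interferon response element, and the PU.1 site GAGGAAGT, where PU.1 is a lineage factor of macrophages. TCACGTGA contains CACGTG, so the first 2 overlap. The stretches below hold every match of these 4 motifs in the 9 windows. With tau in APOE3 cells Ctsa and Ctsd fell, Ctsc rose, and Ctsl and Ctss were not called. Ctsb, which also fell, and Ctsh had no window. Ctsk, Ctsz and Cst3 had windows without any of the 4 motifs. A link between motifs and tau values was not tested. Capitals mark the matches, and letters run 5′ to 3′ along the gene's strand.
Ctsa, chr2:164833758-164833787, plus strand: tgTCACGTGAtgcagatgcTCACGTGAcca
Ctsd, chr7:142387908-142387937, minus strand: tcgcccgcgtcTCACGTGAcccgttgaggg
Ctsd, chr7:142388048-142388077, minus strand: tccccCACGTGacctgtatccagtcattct
Ctsl, chr13:64370739-64370768, minus strand: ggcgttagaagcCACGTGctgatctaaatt
Ctsc, chr7:88277923-88277952, plus strand: gtcactaactaACTTCCTCaggccacctcg
Ctss, chr3:95526764-95526793, plus strand: tGAAACCGAAAtgaaagttcACTTCCTCat

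TCACGTGA was present in 0.974% of all 32851 windows and in the windows of 2 members. CACGTG was present in 7.15% of windows and in 3 members, the interferon response element in 3.44% and 1 member, and GAGGAAGT, which reads ACTTCCTC on the other strand, in 3.20% and 2 members. Of the 8 motifs not shown, CACGTGAC was in 2 members and 2.25% of windows, TTCNNNGAA in 1 and 8.30%, GAGGAA in 4 and 28.3%, CCAAT in 1 and 37.4%, TATAAA in 1 and 13.6% and GGGCGG in 5 and 35.7%. TGACGTCA (1.79%) and TGANTCA (7.81%) were in none. A match describes letters in a window and does not show binding.

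The first comparison asked how the genes differed between tau-treated and untreated APOE3 cells. Ctsa, Ctsb and Ctsd were lower with tau and Ctsc was higher, while the other 6 genes were not called. Of the 10 members, 4 were called at an adjusted p under 0.05, against 14.8% of 13905 genes tested (8.98% higher, 5.87% lower). The median log2 fold change was −0.15 over the members and −0.02 over all genes. Together the 10 genes took 3.89 to 4.70% of counts in untreated APOE3 libraries and 2.72 to 3.53% in tau-treated ones.

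**Figure D1:**
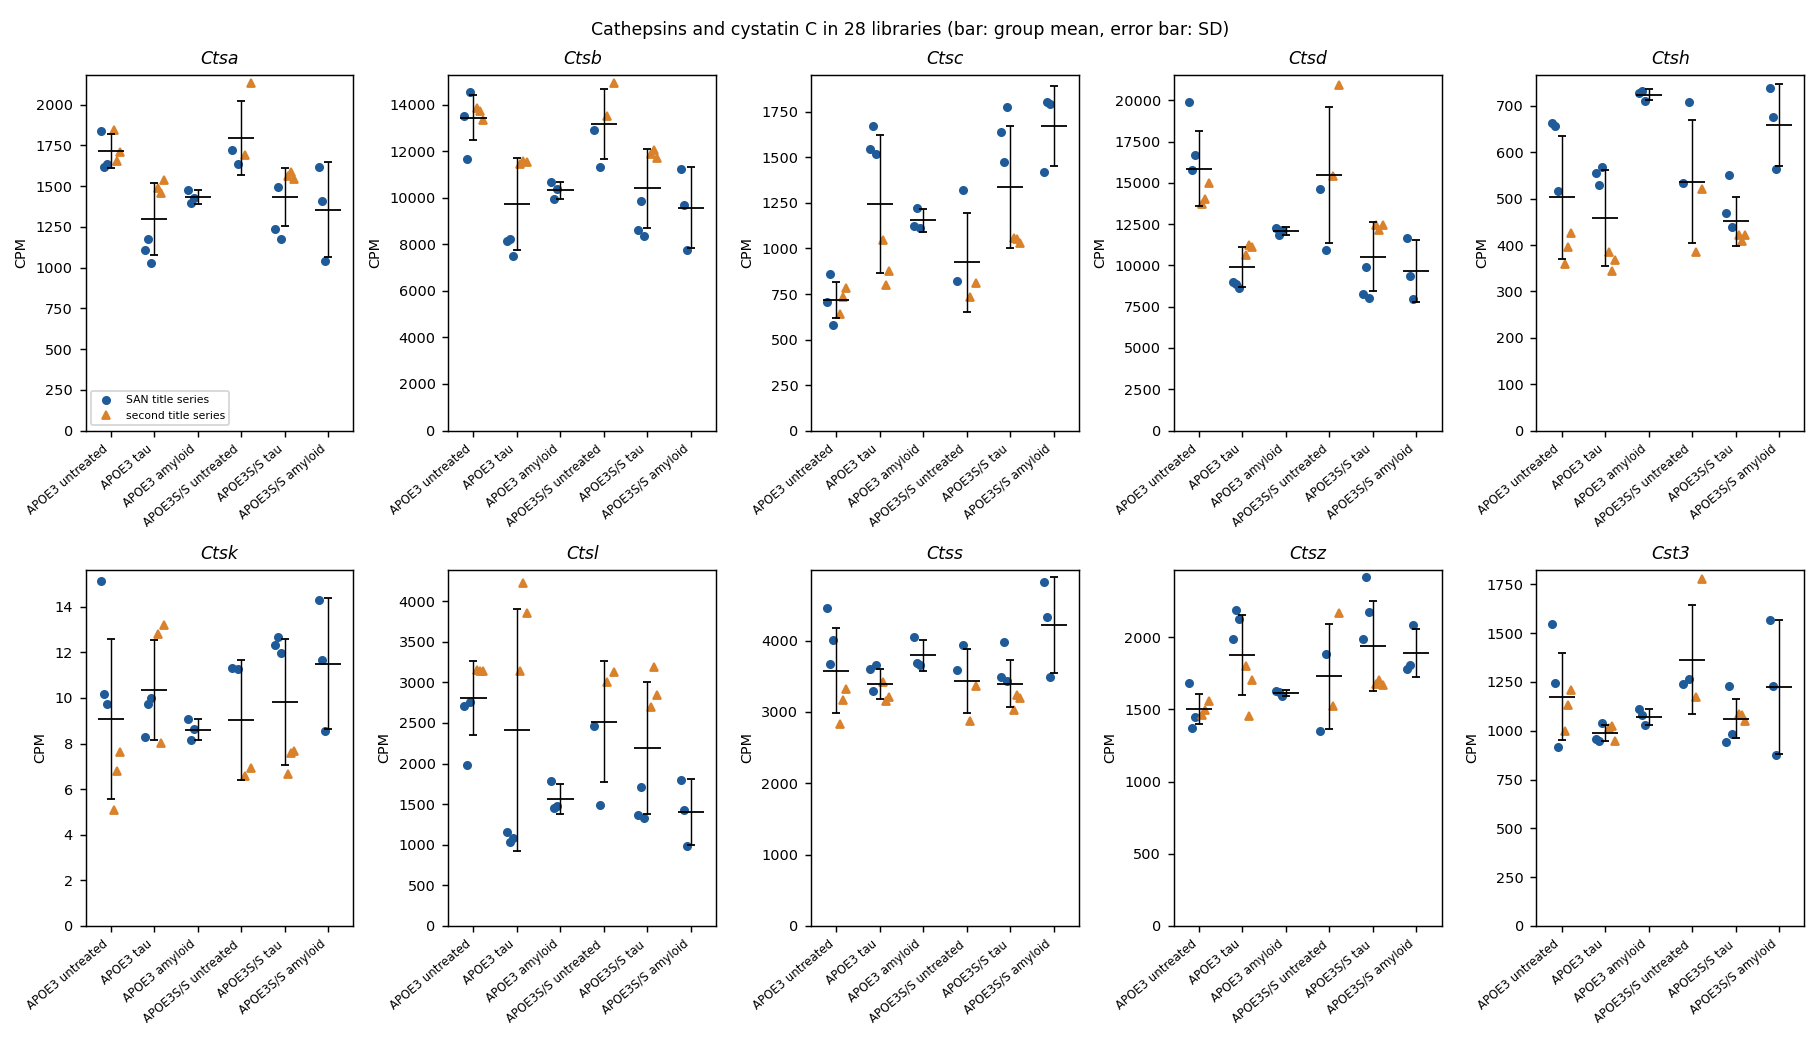
CPM of each gene (vertical axis from 0, 1 panel a gene) in every library by genotype and treatment, with circles for the SAN title series, triangles for the second, a horizontal bar for the group mean and an error bar for the SD. Tau libraries of Ctsd lie below all untreated APOE3 libraries, and Ctsl splits by title series within the tau group.

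Ctsd, the main aspartic protease of the lysosome, stood at 19907, 15775 and 16717 CPM in the untreated APOE3 libraries of the SAN series and at 13741, 14020 and 14969 CPM in those of the second. With tau it stood at 8971, 8881 and 8656 CPM in the SAN series and at 10642, 11212 and 11123 CPM in the second. The groups did not overlap, pooled or within a series. The log2 fold change was −0.66 ± 0.13 (SE), with an adjusted p of 0.0015 in edgeR's quasi-likelihood test.

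Ctsb, an abundant cysteine protease with endo- and exopeptidase activity, was at 11663 to 14551 CPM in the 6 untreated APOE3 libraries (median 13612). It was at 8160, 8237 and 7505 CPM in the tau libraries of the SAN series and at 11469, 11601 and 11543 CPM in those of the second. All 6 tau libraries lay below all 6 untreated ones, the nearest pair by a small margin. Ctsb fell by 0.45 ± 0.09 on the log2 scale (edgeR adjusted p = 0.0011).

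Ctsa encodes protective protein, a carboxypeptidase that also stabilises beta-galactosidase and neuraminidase in a complex. It was at 1616 to 1845 CPM in untreated APOE3 libraries and at 1030 to 1538 CPM with tau, without overlap. Its log2 fold change was −0.38 ± 0.09 (edgeR adjusted p = 0.0042). When the term for title series was left out, Ctsa and Ctsb had log2 fold changes of −0.36 ± 0.12 and −0.42 ± 0.14 and were no longer called (adjusted p 0.0801 and 0.0835).

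Ctsc encodes the dipeptidyl peptidase (cathepsin C) that removes dipeptides from the granule serine proteases of immune cells. It was at 704, 861 and 579 CPM in the SAN untreated APOE3 libraries and 640, 735 and 782 CPM in the second-series ones. With tau it was at 1546, 1675 and 1520 CPM in the SAN series and 1047, 801 and 878 CPM in the second. Groups overlapped when pooled but not within either series, and the tau libraries of the SAN series were the highest. Ctsc rose by 0.77 ± 0.15 on the log2 scale (edgeR adjusted p = 0.0016). Leaving out any 1 of the 12 libraries kept the calls of Ctsa, Ctsb, Ctsc and Ctsd.

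Of the members not called with tau in APOE3, Ctsz, a carboxypeptidase, had a log2 fold change of 0.35 ± 0.13 (edgeR adjusted p = 0.075) and was called without tau library 2 (adjusted p 0.036). Ctsl, a lysosomal endopeptidase, was at −0.41 ± 0.19 (adjusted p = 0.16). Ctsk, which degrades collagen in osteoclasts, was scarce at 5.08 to 15.1 CPM over all libraries and had a log2 fold change of 0.32 ± 0.19. Ctss, which cleaves the invariant chain, Ctsh, an aminopeptidase, and Cst3 had log2 fold changes of −0.02 ± 0.08, −0.09 ± 0.11 and −0.21 ± 0.13. Their groups overlapped, and these estimates do not show that the levels were alike.

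The title series changed what was seen. In the SAN series alone, 6 of 10 members were called in APOE3 (19.0% of 13779 genes): Ctsa, Ctsb, Ctsd and Ctsl lower, Ctsc and Ctsz higher. In the second series alone 0 of 10 were called (2.55% of 14589 genes). The values had the same sign as in the SAN series for 7 of the 10, Ctsk, Ctsl and Ctss being the exceptions. In the second series, log2 fold changes were −0.36 ± 0.12 for Ctsd, −0.23 ± 0.09 for Ctsb, −0.20 ± 0.10 for Ctsa and 0.35 ± 0.12 for Ctsc. All 4 were smaller than in the SAN series, where Ctsd stood at −0.90 ± 0.15, Ctsb at −0.64 ± 0.12, Ctsa at −0.53 ± 0.12 and Ctsc at 1.23 ± 0.20. Of these 4 differences between series, those of Ctsa, Ctsb and Ctsd did not pass edgeR's test (adjusted p 0.23, 0.070 and 0.093), and that of Ctsc is given next. Without untreated library 2, the difference of Ctsb was called at 0.53 (adjusted p 0.025).

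**Figure D2:**
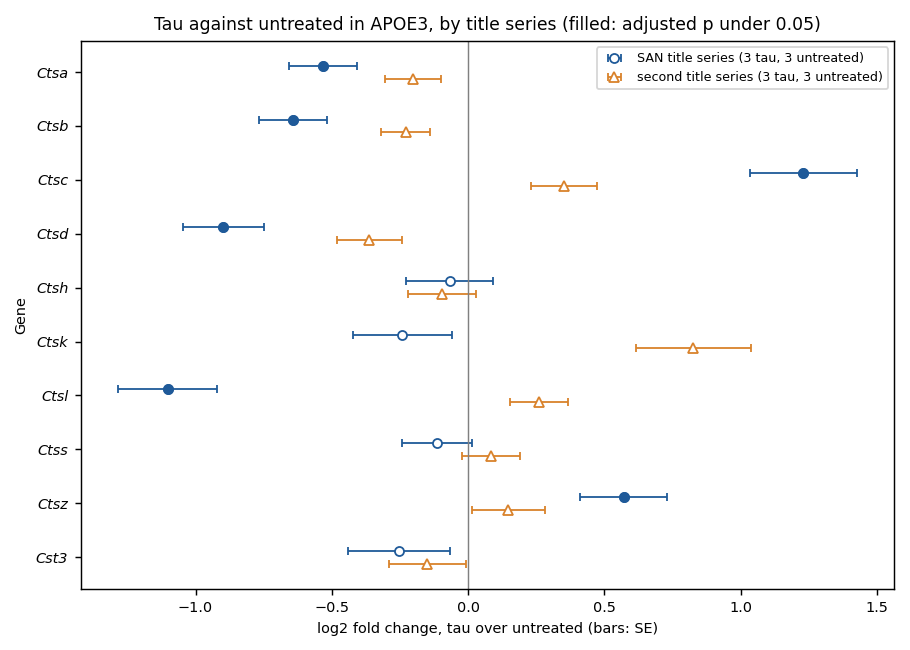
Log2 fold change of each gene with tau in APOE3 cells (horizontal axis, bars for the SE), in the SAN title series (circles) and the second (triangles), each with 3 tau and 3 untreated libraries, filled where the adjusted p was under 0.05. Ctsl lies at −1.10 in the SAN series and at 0.26 in the second.

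The difference in tau effect between title series was tested in APOE3 cells, and 3 of 10 members were called (5.19% of 14614 genes). Ctsl differed most clearly. It stood at 2712, 1979 and 2752 CPM in the SAN untreated libraries and at 1152, 1031 and 1077 CPM with tau. In the second series it stood at 3152, 3136 and 3138 CPM untreated and at 3137, 4222 and 3856 CPM with tau. SAN tau libraries all lay under their controls, whereas the second-series groups overlapped. The second-minus-SAN difference was 1.39 ± 0.22 on the log2 scale (edgeR adjusted p = 0.0017) and was called without each of the 12 libraries.

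Ctsk and Ctsc were also called in that test, with differences of 1.09 ± 0.29 (edgeR adjusted p = 0.033) and −0.85 ± 0.24 (adjusted p = 0.042). Both calls were close to the threshold. Ctsk was called in 4 and Ctsc in 3 of 12 fits that each left out 1 library, with adjusted p up to 0.092 for Ctsk and 0.12 for Ctsc. Over these fits the difference ran from 0.83 to 1.30 for Ctsk and from −0.998 to −0.703 for Ctsc. The libraries whose loss ended the Ctsk call were untreated 1, 4 and 5 and tau 1, 3, 4, 5 and 6, and those for Ctsc were untreated 1, 3, 5 and 6 and tau 2 to 6. In APOE3S/S cells, 0 of 10 members were called for a difference in tau effect between series by edgeR (0.903% of 14614 genes). DESeq2 and limma-voom called 0 there. In edgeR 1 member had an unadjusted p under 0.05, against 17.0% of genes. Without untreated APOE3S/S library 2 or 3, Ctsz was called there (adjusted p 0.032 and 0.021).

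Among untreated APOE3 libraries, 2 of 10 members were lower in the second series than in the SAN series (15.4% of 14614 genes called). Ctsh was lower by a log2 difference of −0.58 ± 0.15 (edgeR adjusted p = 0.011) and Ctsk by −0.79 ± 0.21 (adjusted p = 0.013). Ctsh was at 663, 656 and 517 CPM in the SAN series and at 359, 395 and 426 CPM in the second, without overlap. Without untreated library 1 or 4 neither gene was called, and without library 2 Ctsh was not (adjusted p 0.051 to 0.11 over these fits). What the title series stand for is not stated in the labels or headers, and its part in the tau values was not tested further.

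The second question was how tau-treated APOE3S/S cells compared with untreated ones. Ctsb and Ctsd were lower, 2 of 10 members called against 3.28% of 13905 genes (2.14% higher, 1.14% lower). The median log2 fold change was −0.24 over the members and −0.01 over all genes. Both calls lay close to the threshold.

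Ctsd was at 14610, 10917, 15429 and 20909 CPM in the untreated APOE3S/S libraries 1 to 4 and at 8009 to 12471 CPM with tau (median 11014). Untreated library 2 lay within the tau range, so the groups overlapped pooled, while they did not within either series. The log2 fold change was −0.55 ± 0.15 (edgeR adjusted p = 0.039). Ctsb, at 11310 to 14932 CPM untreated and 8357 to 12075 CPM with tau, had −0.34 ± 0.09 (adjusted p = 0.049).

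The Ctsd call was lost without untreated library 1, 3 or 4 or tau library 1, 2, 4 or 6 (adjusted p up to 0.16), and the Ctsb call without any 1 library except untreated 2 and tau 5 (up to 0.13). Untreated library 2 stood apart for Ctsc at 1324 CPM, with the other 3 at 735 to 822 CPM. Without it Ctsc, at 0.52 ± 0.17 with all libraries (edgeR adjusted p = 0.092), was called at 0.65 (adjusted p 0.042). Ctsa had −0.33 ± 0.09 (adjusted p = 0.059) and was called without tau library 5 (adjusted p 0.033) or untreated library 3 (0.048), and Cst3 had −0.36 ± 0.14 (adjusted p = 0.15). By series, 0 of 10 were called in the SAN series (4.63% of 13779 genes) and 1 in the second, Ctsd (2.26% of 14589 genes).

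**Figure D3:**
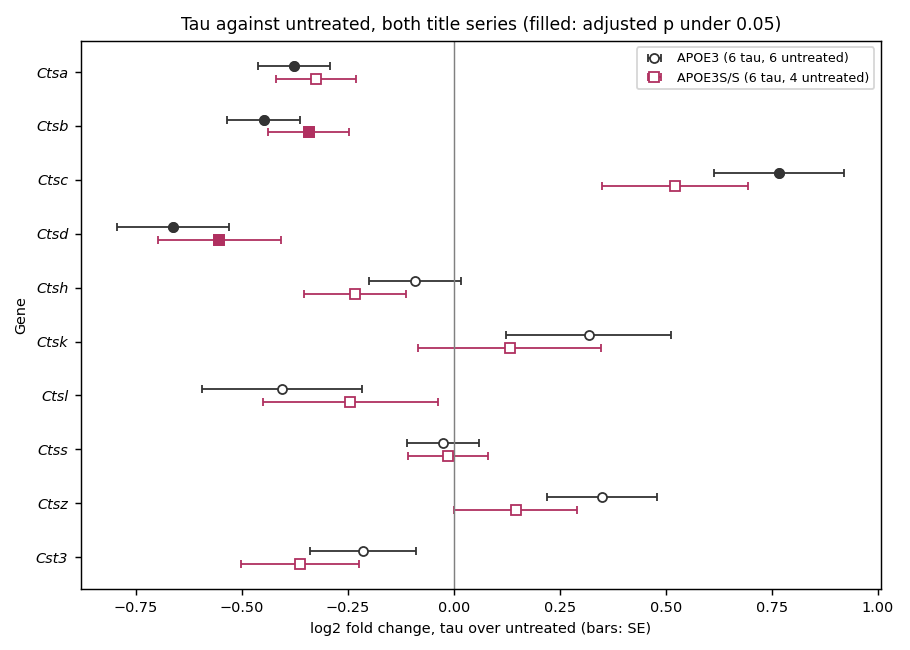
Log2 fold change of each gene with tau over untreated (horizontal axis, bars for the SE) in APOE3 cells (circles, 6 tau and 6 untreated libraries) and APOE3S/S cells (squares, 6 and 4), filled where the adjusted p was under 0.05. Ctsd lies at −0.66 and −0.55, and the SE bars of the 2 genotypes overlap for each of the 10 genes.

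Whether the tau effect differed between genotypes was tested directly, and 0 of 10 members were called (0.0% of 13905 genes). No member had an unadjusted p under 0.05 in edgeR, against 2.04% of genes, and DESeq2 and limma-voom called 0 members. The APOE3S/S-minus-APOE3 difference, with a 95% interval from its SE by the normal approximation, was 0.11 (−0.28 to 0.49) for Ctsd, 0.11 (−0.15 to 0.36) for Ctsb and 0.05 (−0.20 to 0.30) for Ctsa. For Ctsc it was −0.25 (−0.69 to 0.20). The interval for Ctsc thus reached −0.69, beside a tau effect of 0.77 in APOE3 cells. By title series (SAN, then second) the difference was 0.42 ± 0.22 and −0.26 ± 0.18 for Ctsd, and 0.27 ± 0.19 and −0.09 ± 0.13 for Ctsb. It was 0.23 ± 0.19 and −0.15 ± 0.16 for Ctsa, −0.58 ± 0.29 and 0.03 ± 0.18 for Ctsc, and 0.76 ± 0.27 and −0.39 ± 0.16 for Ctsl. None of these was called, and the pooled values average over the series.

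Compared directly in edgeR, APOE3S/S and APOE3 libraries gave 0 called members when untreated (0.00719% of 13905 genes) and 0 with tau (0.0144%). An unadjusted p under 0.05 was found for 1 untreated member, Ctsc (7.7% of genes), and for 0 with tau (2.16%). DESeq2 and limma-voom called 0 members in both. Ctsc differed between untreated genotypes by 0.35 (95% interval 0.02 to 0.68), and by 0.23 without untreated APOE3S/S library 2, the high one. Cst3 differed by 0.24 (−0.03 to 0.52) untreated, by 0.048 without untreated APOE3S/S library 4, which was the highest at 1780 CPM, and by 0.09 (−0.15 to 0.34) with tau.

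Amyloid was given in the SAN series only, and these comparisons share untreated libraries with the tau comparisons. In APOE3 cells 0 of 10 members were called with amyloid (0.0% of 13867 genes; edgeR). In that fit 4 of 10 members had an unadjusted p under 0.05, against 13.1% of genes (1822). DESeq2 called 1 member (2.08% of genes) and limma-voom 0. With only the 2 compared groups in the fit, 3 members were called, against 4.44% of 12962 genes.

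Ctsc was at 1125, 1225 and 1113 CPM with amyloid, all above the 579 to 861 CPM of the SAN untreated APOE3 libraries, with a log2 fold change of 0.68 ± 0.20 (edgeR adjusted p = 0.23). Ctsl was at 1779, 1448 and 1472 CPM, below the untreated 1979 to 2752 CPM, with −0.67 ± 0.24 (adjusted p = 0.27). Ctsd was at 12264, 11837 and 12137 CPM, below the untreated 15775 to 19907 CPM, with −0.55 ± 0.18 (adjusted p = 0.25). The groups did not overlap for these 3 genes, nor for Ctsa, Ctsb, Ctsh and Ctsk, but no adjusted p was under the threshold. The share of all genes without overlap was not counted, so this does not set the members apart from other genes.

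**Figure D4:**
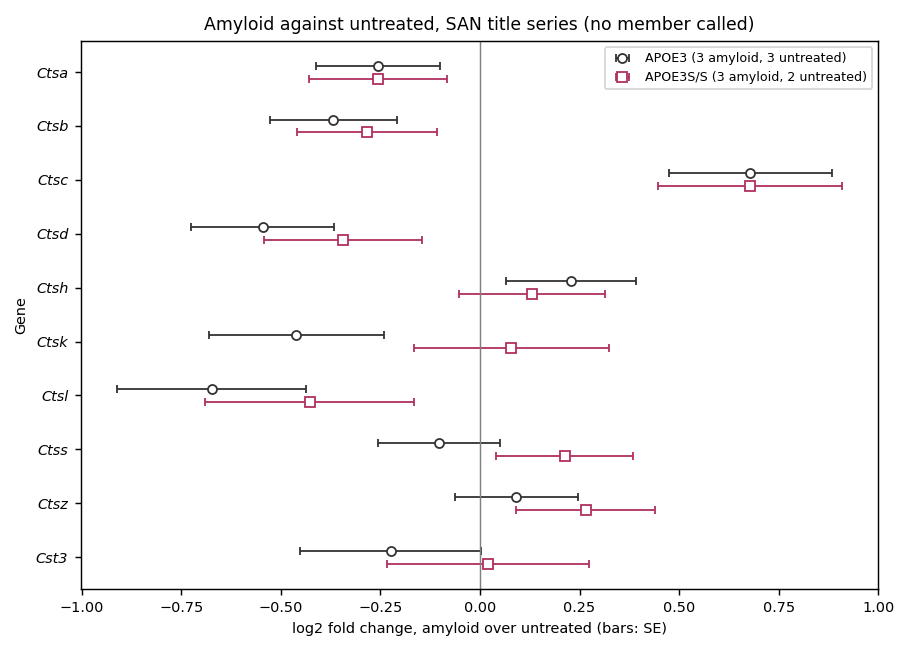
Log2 fold change of each gene with amyloid over untreated in the SAN title series (horizontal axis, bars for the SE) in APOE3 cells (circles, 3 and 3 libraries) and APOE3S/S cells (squares, 3 and 2). No point is filled because no adjusted p was under 0.05, and Ctsc lies at 0.68 in both genotypes.

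In APOE3S/S cells 0 of 10 members were called with amyloid by edgeR (0.0% of 13867 genes), and 0 by DESeq2 and by limma-voom. In edgeR 1 member had an unadjusted p under 0.05, against 8.52% of genes. Ctsc was at 1422, 1804 and 1792 CPM with amyloid and at 822 and 1324 CPM untreated, a log2 fold change of 0.68 ± 0.23 (adjusted p = 0.58). Without untreated library 2 it was called at 1.12 (adjusted p 0.028). APOE3S/S amyloid library 3 was the lowest of its group for Cst3, Ctsa, Ctsb, Ctsd, Ctsh, Ctsk, Ctsl and Ctss and the highest for Ctsz. The difference in amyloid effect between genotypes passed edgeR's test in 0 of 10 members (0.0% of genes). There 0 of 10 had an unadjusted p under 0.05, against 3.71% of genes, and DESeq2 and limma-voom called 0. The amyloid-treated genotypes were called apart by edgeR in 0 of 10 (0.0%), and DESeq2 and limma-voom called 0. In that edgeR test 2 of 10 had an unadjusted p under 0.05, against 12.1% of genes. Between amyloid-treated genotypes Ctsc differed by 0.62 (95% interval 0.22 to 1.02), without overlap of the libraries (edgeR adjusted p = 0.39).

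Tau was set against amyloid within the SAN series. In APOE3 cells edgeR called 0 of 10 members (7.33% of 14131 genes), DESeq2 2 (11.3%) and limma-voom 0 (7.55%). In edgeR 4 members had an unadjusted p under 0.05, against 23.5% of genes. Ctsz was nearest, at 1988, 2187 and 2127 CPM with tau and 1630, 1619 and 1594 CPM with amyloid, a log2 difference of 0.47 ± 0.14 (adjusted p = 0.053) without overlap. Ctsc was higher with tau than with amyloid by 0.54 ± 0.18 (adjusted p = 0.074). With only these 2 groups in the fit, 7 of 10 members were called, against 27.9% of 13072 genes. In APOE3S/S cells 0 of 10 members were called by edgeR (0.149%), and 0 by DESeq2 and by limma-voom. In edgeR 1 member, Ctsh at −0.44 ± 0.15, had an unadjusted p under 0.05, against 9.40% of genes.

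Because Ctsc and Ctsd moved in opposite directions, their counts were set against each other within each library, a ratio chosen after the values were seen. There were 3.47 to 5.46 Ctsc counts per 100 Ctsd counts in untreated APOE3 libraries. With tau there were 17.2 to 18.9 in the SAN series and 7.15 to 9.84 in the second, and with amyloid 9.17 to 10.4. In APOE3S/S libraries there were 3.89 to 12.1 untreated and 8.27 to 22.2 with tau, which overlapped pooled but not within either series. The ratio of Ctsl to Ctss was chosen likewise. In the SAN series there were 53.9 to 68.6 Ctsl counts per 100 Ctss counts in untreated APOE3 libraries and 29.4 to 32.0 with tau, without overlap. In the second series there were 94.4 to 111 untreated and 91.6 to 134 with tau, which overlapped and lay above all those of the SAN series. Cst3 counts per 100 Ctsb counts, inhibitor against enzyme, overlapped between untreated (6.30 to 11.5) and tau-treated (8.22 to 13.8) APOE3 libraries.

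**Figure D5:**
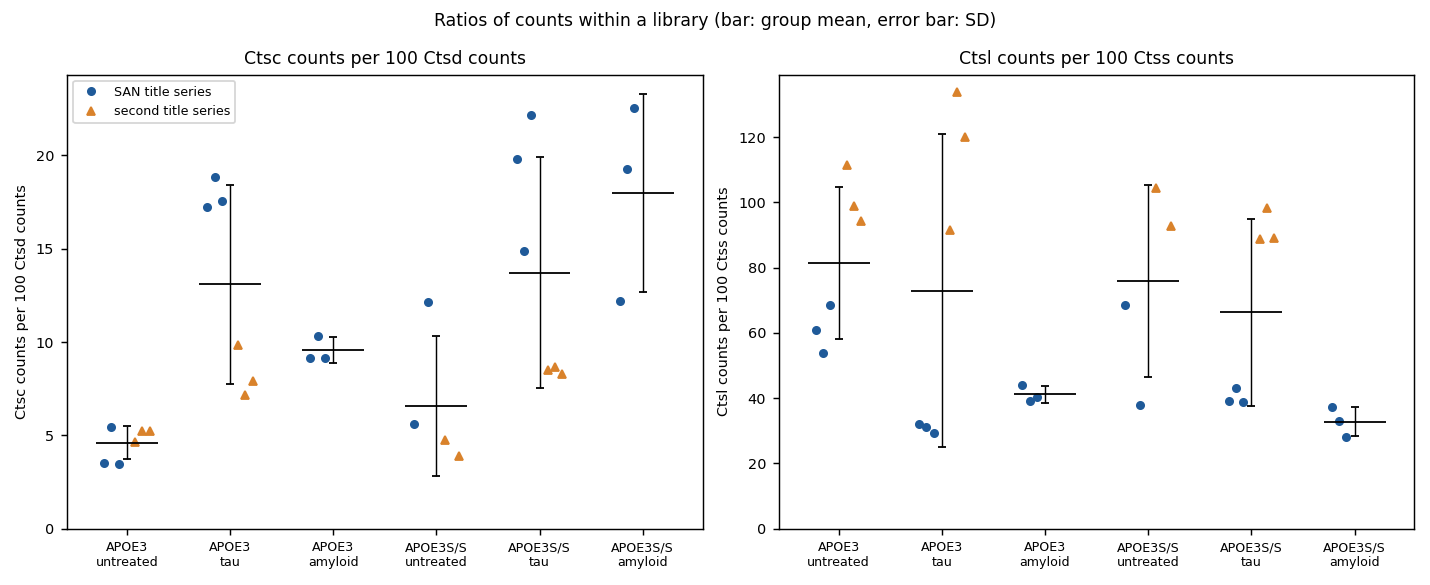
Ctsc counts per 100 Ctsd counts (left) and Ctsl counts per 100 Ctss counts (right) in each library by group, with circles for the SAN title series, triangles for the second, a bar for the group mean and an error bar for the SD. Ctsc per 100 Ctsd is at most 5.46 in untreated APOE3 libraries and at least 7.15 in tau-treated ones, while untreated and tau-treated APOE3S/S libraries overlap.

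Across the 28 libraries, the log2 levels of Ctsa and Ctsb had a Pearson correlation of 0.95, Ctsb and Ctsd 0.90, and Ctsb and Ctsc −0.90. After the mean of each group within each title series was removed, these were 0.85, 0.79 and −0.63. Without that step the points share title series. Both sets of values share depth and are descriptions. Among 8492 genes averaging 10 CPM or more, the closest to Ctsb was Syngr1 (0.98), the closest to Ctsc was Gbp2 (0.97), the closest to Ctsd was Dpp7 (0.98) and the closest to Ctsl was Adssl1 (0.98). For Ctsa it was Ctsb, for Ctsh Selplg (0.95), for Ctss Sugt1 (0.88), for Ctsz Eif6 (0.94), for Cst3 Tyrobp (0.95) and for Ctsk Chmp5 (0.74).

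Among genes of the same pathway, 9 rose and 15 fell of 62 tested (72 listed) with tau in APOE3 cells. Over all 13905 genes tested, 8.98% were called higher and 5.87% lower. These shares stand beside each count in this and the next paragraph, and no list was tested as a set. Of other lysosomal hydrolases, 0 rose and 5 fell of 12, among them Lipa, the acid lipase (−0.45 ± 0.08), and Gusb, beta-glucuronidase (−0.27 ± 0.06). Subunits of the proton pump that acidifies lysosomes gave 0 and 3 of 12, with Atp6v0a1 at −0.85 ± 0.12, Atp6v0d2 at −0.94 ± 0.19 and Atp6v1b2 at −0.43 ± 0.09. Of 6 other lysosomal proteases tested, Lgmn, an asparaginyl endopeptidase that activates cathepsins (−0.64 ± 0.15), and Ctse (−1.01 ± 0.26) fell. All adjusted p-values in this and the next paragraph are from edgeR over all genes and were under 0.05 where a gene rose or fell.

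Of cystatins and stefins, the inhibitors, 2 of 3 tested rose, Stfa3 by 1.99 ± 0.56 and Cst7, which encodes cystatin F, by 1.36 ± 0.43, while Cstb had 0.24 ± 0.12. Of the genes for MHC class II processing, 2 of 6 rose, H2-Ab1 by 2.04 ± 0.54 and Cd74, the invariant chain, by 0.62 ± 0.20. Of 9 partners and substrates 3 rose and 3 fell, with Il18 at 0.97 ± 0.18, Galns at −0.37 ± 0.08 and Psap, the precursor of saposins, at −0.35 ± 0.09. Of 10 genes for delivery to lysosomes, M6pr, a mannose 6-phosphate receptor, rose (0.35 ± 0.09) and Gnptg, which helps make the mannose 6-phosphate tag, fell (−0.34 ± 0.11). In the TFEB family of transcription factors, Tfeb fell (−0.41 ± 0.09) and Tfec rose (0.69 ± 0.21) of 4. The lists had a median of −0.08 over the 62 genes, against −0.02 over all genes.

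With amyloid in APOE3 cells 0 of the 60 listed genes tested were called, and the nearest, Gla, was at −0.50 ± 0.15 (edgeR adjusted p = 0.22). In APOE3S/S cells with tau, 0 rose and 4 fell of 62, against 2.14% higher and 1.14% lower of 13905 genes. Beside the tau values, markers of fibroblasts and osteoclast-like cells summed to 27.0 to 93.4 CPM in untreated APOE3 libraries and 77.1 to 184 CPM with tau, mostly Mmp9 and Acp5, with 2 of 7 tested called higher. In APOE3S/S libraries that sum was 21.5 to 68.9 CPM untreated and 74.4 to 191 CPM with tau. Astrocyte markers summed to 24.0 to 38.0 CPM in untreated APOE3 libraries and 32.9 to 61.1 CPM with tau, with 1 of 7 called higher. That sum was mostly Aldh1l1 (median 37.2 CPM over all libraries), and the next marker, Gfap, had a median of 2.26 CPM. Of 12 microglial markers 5 were called higher and 2 lower with tau in APOE3 cells, and of 7 border-associated macrophage and monocyte markers tested 2 were called higher and 0 lower, their sum running from 1162 to 2629 CPM untreated and from 1179 to 2904 CPM with tau. Over all 13905 genes tested with tau in APOE3 cells, 8.98% were called higher and 5.87% lower. The part of the markers in the values above was not tested.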

How the data were processed

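The deposited tables hold raw counts per gene, unnormalised whole numbers per the file headers and values, for 22 libraries (untreated, tau) and 11 libraries (untreated, amyloid). The 5 libraries in both were identical and used once. Libraries were made with a QuantSeq 3′ forward kit, per the labels' protocols, so counts do not scale with gene length. The submitters' processing notes name GRCm38 (mm10) and DESeq2 1.38.3; the aligner and counter are not stated there or in the labels. Of 60976 entries, 6360 held no number and 189 that shared a symbol were left out; 24 symbols turned into dates were kept in the fits and not used as names.

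Low genes were removed with filterByExpr and libraries scaled with TMM. The test was the quasi-likelihood F test of edgeR 4.0.16 (R 4.3.3); p-values were adjusted by Benjamini-Hochberg across the whole table, and a gene was called at an adjusted p under 0.05. The tau fit used 22 libraries with terms for group and title series, the amyloid fit 11, tau against amyloid 17, and the fit by series 22. CPM is counts per M (1e6) counts of a library. Correlations used log2(CPM + 1). Each library's total was at least 14.5 M counts, and errors cover only the spread between these libraries. The members, gene lists and tests were chosen with earlier results of these data known; the 3 ratios and the 4 motifs shown of 12 were chosen after values or matches were seen. Named genes are all 10 members, the 3 smallest p-values in each related list for tau and amyloid in APOE3 cells (those in the text are called ones, Cstb and Gla; 1 is not reported here), and the most alike gene of each member. Alternatives tried were DESeq2 1.42.0, RLE scaling, leaving low genes in, limma-voom (limma 3.58.1), each title series alone, no series term, the compared groups alone, a replicate block and leaving out each library. The test procedure was checked on simulated data for tau in APOE3 cells. It called 73 of 100 genes changed by 1 on the log2 scale and 96 of 100 changed by 2. Of unchanged genes 0.0584% were called. Changes smaller than 1, where the member values of that comparison lay, were not simulated.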

Additional observations from a re-analysis of the deposited data

Results flagged for a closer look

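Of 40 gene and group pairs checked for a library standing apart, 4 were picked out, and chance alone picks out about 1 in 20 groups. In untreated APOE3S/S cells, library 4 had the highest Ctsa at 2131 CPM (next 1723 CPM) and the highest Cst3 at 1780 CPM (next 1264 CPM), and library 2 had the highest Ctsc at 1324 CPM (next 822 CPM). In untreated APOE3 cells, library 2 had the lowest Ctsl at 1979 CPM (next 2712 CPM).

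In APOE3 cells, the effect of tau differed between the title series for 3 members by edgeR's test of the difference. The second-minus-SAN difference on the log2 scale was −0.85 for Ctsc (adjusted p 0.042), 1.09 for Ctsk (adjusted p 0.033) and 1.39 for Ctsl (adjusted p 0.0017).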

How the results depend on the processing

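The number of members called depended on the setting. Percentages are shares of all genes tested in that setting, and none is given for fits that left out a library. With tau in APOE3 cells, 4 were called (14.8%), 6 without the low-count filter (8.33%), 5 with DESeq2 (17.6%) and 6 in the SAN title series alone (19.0%). There were 5 with the 2 compared groups alone (15.8%), 2 without the series term (6.08%) and 0 in the second title series alone (2.55%). When a library was left out, 4 to 5 were called. With tau in APOE3S/S cells, 2 were called (3.28%), 4 without the low-count filter (5.08%), 4 with DESeq2 (6.83%) and 1 in the second series alone (2.26%). There were 0 in the SAN series alone (4.63%), 0 without the series term (0%) and 0 with the 2 compared groups alone (1.97%). When a library was left out, 0 to 3 were called. With amyloid, 0 were called in APOE3 cells (0%), 3 without the filter (3.92%), 1 with DESeq2 (2.08%) and 3 with the 2 compared groups alone (4.44%). In APOE3S/S cells 0 were called (0%), 1 without the filter (2.59%), and 0 to 1 when a library was left out. Between amyloid-treated genotypes 0 were called (0%), 1 without the filter (2.88%) and 1 with the compared groups alone (2.71%). For tau against amyloid in APOE3 cells 0 were called (7.33%), 3 without the filter (7.07%), 2 with DESeq2 (11.3%) and 7 with the compared groups alone (27.9%). For the tau effect by series, 3 were called in APOE3 cells (5.19%), 5 with DESeq2 (8.02%) and 1 to 4 when a library was left out. In APOE3S/S cells 0 were called (0.903%), 1 without the filter (2.71%), and 0 to 1 when a library was left out. Between the series of untreated APOE3 libraries 2 were called (15.4%), 4 with DESeq2 (18.3%) and 0 to 2 when a library was left out. The cause of these changes was not tested. The genotype comparisons with a replicate block gave 0 called members, as without it; numbers did not pair the samples (correlations of same-numbered libraries −0.15 to 0.21).

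Over all genes, tau in APOE3 cells gave 2064 calls, 846 without the series term and 372 in the second series alone. Tau in APOE3S/S cells gave 456, 1441 without the filter, 950 with DESeq2, 697 with limma-voom, 262 with the compared groups alone and 0 without the series term. Amyloid in APOE3 cells gave 0, 1008 without the filter, 289 with DESeq2 and 575 with the compared groups alone. RLE scaling moved the median of all genes by at most 0.013 on the log2 scale. No member value that was called changed sign (0 of 184 under the alternatives), and 151 of 1986 that were not called did; those sign changes of uncalled values are given only as this count. Values of Ctsk rest on few counts.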
